A study of Homo sapiens with 3 samples.

Results

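The comparison set ghR-34a against miR-34a, a pair of RNAs given at the same dose and for the same time to the same cell line, gene by gene. NCI-H1299 is an established line of human non-small cell lung carcinoma and lacks the transcription factor p53. Cells were transfected with miR-34a or with ghR-34a, each at 25 nM for 48 hours with Lipofectamine RNAiMAX, and 1 expression array was made from total RNA of each culture. The remaining array came from mock cells, which the labels describe no further. The labels give no structure or sequence for ghR-34a, only its name, and cells given an unrelated RNA were not among the samples. The study used the transfectants to look for miR-34a targets whose mRNA is degraded, as opposed to targets held back in translation. Here 2 of the 3 arrays are compared with each other, and the mock array is shown beside them. All genes with a single gene symbol in the platform annotation entered, and 11917 of 19775 measured genes had a signal high enough to be kept, at a mean over the arrays of at least 68.6. The other 7858 were below that level.

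MicroRNAs are short RNAs that guide Argonaute proteins to partly complementary sites in mRNAs, mostly in their 3′ untranslated regions, after which the mRNA is translated less and often degraded. The main contact is the seed, bases 2 to 8 of the mature strand. miR-34a is transcribed under p53 and is known for lowering regulators of the cell cycle, of survival and of receptor tyrosine kinase signalling. The natural strands are shown because a duplex can load either strand into Argonaute, and because related microRNAs carry the seed of the 5p strand. Sequences are from RefSeq (GRCh38.p14). Capitals mark the seed.
hsa-miR-34a-5p: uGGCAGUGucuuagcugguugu
hsa-miR-34a-3p: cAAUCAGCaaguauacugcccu
hsa-miR-449a: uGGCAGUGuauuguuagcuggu
hsa-miR-449b-5p: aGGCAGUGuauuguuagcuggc
hsa-miR-34b-5p: uAGGCAGUgucauuagcugauug
The 5p strand of miR-34a lies at chr1:9151735-9151756 and the 3p strand at chr1:9151693-9151714, both on the minus strand in the gene MIR34A. Among the 2370 mature human sequences of the RefSeq table, 3 have the seed GGCAGUG. They are miR-34a-5p itself, miR-449a and miR-449b-5p. The strand miR-34c-5p, another member of the family, was not among the sequences compared, so the count of 3 does not cover its seed. In miR-34b-5p the same letters are moved by one base, so its seed is AGGCAGU. Whether the transfected RNAs carry exactly these letters is not stated in the labels, and the small RNAs were not measured on the arrays.

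The arrays were alike in scale. Each held 54675 probe sets with a 2% trimmed mean of 500.1, and the median signals were 70.6 in mock, 74.98 with miR-34a and 69.2 with ghR-34a. Across 42 spike-in control probe sets, the SD of the log2 difference between the RNA arrays was 0.13, with a range from -0.47 to 0.31. The housekeeping genes GAPDH and ACTB differed by -0.09 and -0.05. RNA integrity was alike by the GAPDH controls, whose 3′ probe set over 5′ probe set ratio was 0.924 with miR-34a and 0.932 with ghR-34a. With 1 array per condition there is no spread between replicates, so no gene was tested, and every value below describes these arrays only. The number of arrays limits the precision. In bulk RNA of a culture, fewer cells of a kind and less RNA per cell cannot be told apart.

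The transcriptomes of the RNA-treated cultures lay close together. All differences are ghR-34a minus miR-34a on the scale log2(signal + 32), which understates the difference of genes with low signal. Of the 11917 genes, 10906 (91.5%) were within 0.5 of each other, and the SD over genes was 0.29. The median difference was -0.03 (quartiles -0.19 and 0.13). It was 0.05 with median centring and -0.02 after quantile normalization, so the sign of a list median below is read beside these values. Over all genes 44.4% were above 0, 58.9% with median centring and 47.1% after quantile normalization. The counts of list members above 0 given below stand beside this 44.4%. A gene was counted as different at 1 or more on this scale, a 2-fold difference. By this rule 80 genes (0.671%) differed, 39 of them higher with ghR-34a (0.327%) and 41 lower (0.344%). Counts of list members at 2-fold given below stand beside this 0.671%, so a count of 0 in a list says little. Against mock, the same rule counted 281 genes (2.36%) with miR-34a and 122 genes (1.02%) with ghR-34a. The split between higher and lower depends on the scaling. It was 54 higher and 27 lower with each array centred on its median, and 45 and 31 after quantile normalization.

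The differences were not spread evenly over the range of signal. The genes were ordered by mean signal and divided into 4 signal classes of nearly equal size. In the lowest class, class 1, 21 were higher and 30 lower with ghR-34a, and in class 2, 3 were higher and 9 lower. In class 3, at mean signals from 794 to 2134, 8 were higher and 2 lower. In class 4, the highest, 7 were higher and 0 lower. The SD of the differences was 0.38 in class 1 and 0.21 in class 4, so a difference of 1 is more extreme among strongly expressed genes. The median difference was -0.09 in class 1 and 0.001 in class 4.

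**Figure D1:**
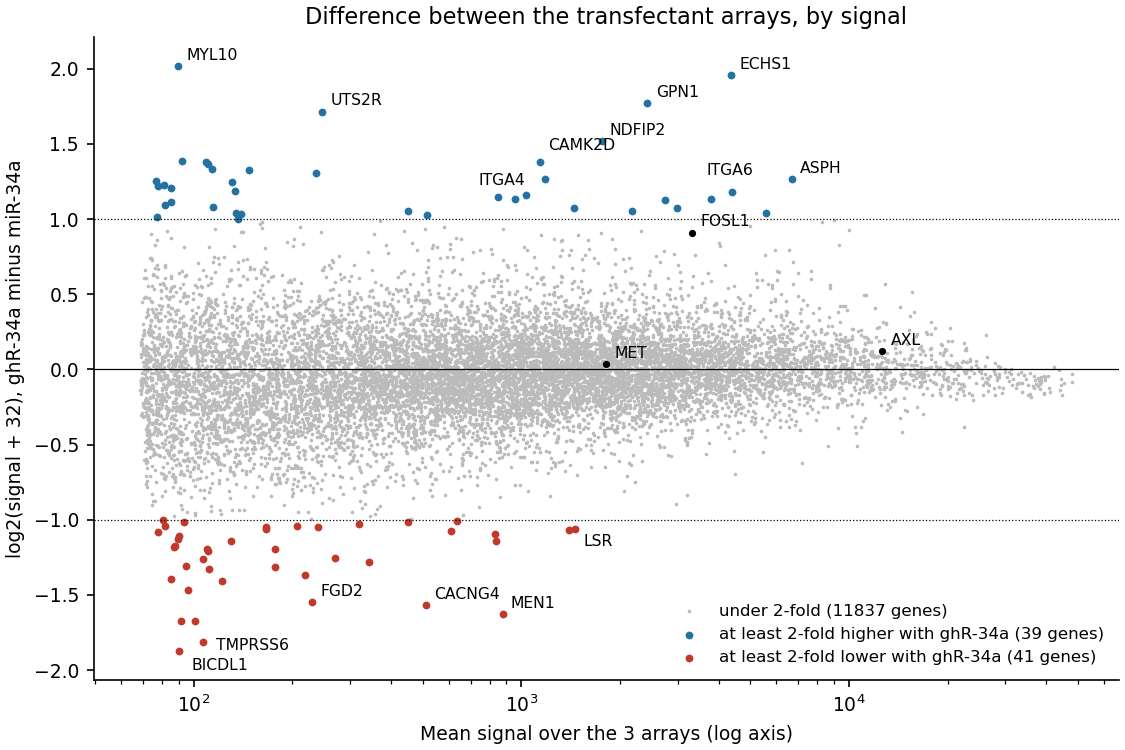
Each point is a gene, with its mean signal over the 3 arrays on a log axis and its log2(signal + 32) difference, ghR-34a minus miR-34a, 1 array per condition; dotted lines mark 2-fold. At mean signals of at least 1000, 14 of the 16 2-fold points lie above 0, led by ECHS1 at 1.96 and GPN1 at 1.77, while most points below the lower line have low signals.

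**Figure D2:**
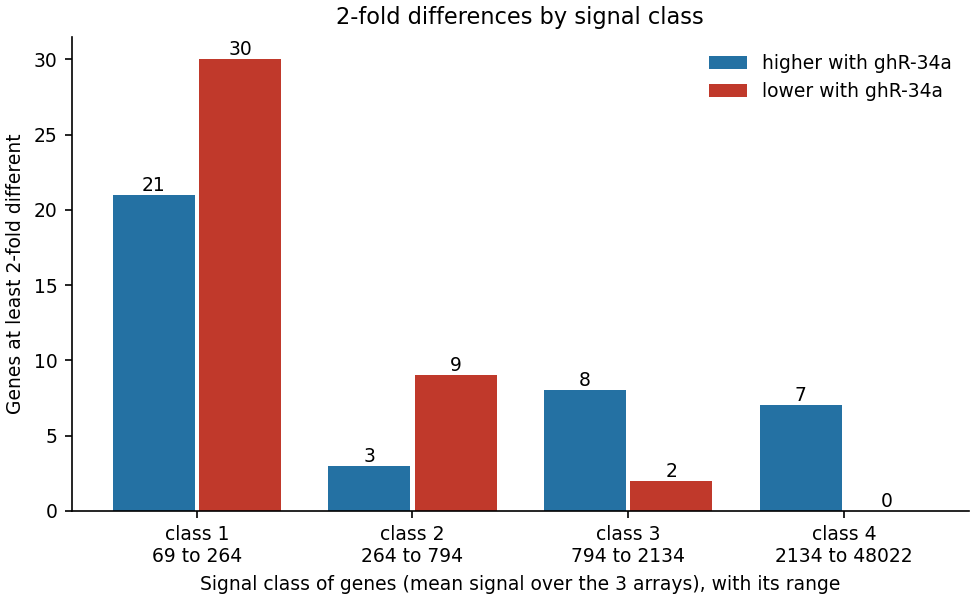
Bars count the genes at least 2-fold higher (blue) or lower (red) with ghR-34a than with miR-34a in each of the 4 signal classes of the kept genes. The counts go from 21 higher and 30 lower in class 1 to 7 higher and 0 lower in class 4.

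Genes of strong signal that differed were, with few exceptions, low in the miR-34a array alone. Here the mean signal is the arithmetic mean of the 3 signals. Among the 5311 genes with a mean signal of at least 1000, a level chosen after the values were seen, 14 were at least 2-fold higher with ghR-34a and 2 were lower. All 14 were below mock with miR-34a, and 13 of them were within 0.5 of mock with ghR-34a. Of these counts, those against mock share the miR-34a or ghR-34a array with the difference itself and are a description. Other probe sets of the same gene, which read other parts of the transcript on the same arrays, were above the filter for 11 of the 14 genes. The median of the other probe sets was higher with ghR-34a for all 11, at a median difference of 0.65. Among all kept genes with another probe set, 3782 of 6026 had the same sign there.

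ECHS1 and GPN1 had the largest differences of this kind. ECHS1, which hydrates enoyl-CoA during fatty acid breakdown in mitochondria, had a signal of 6027 in mock, 1433 with miR-34a and 5668 with ghR-34a, a difference of 1.96 (3.89-fold). GPN1, a GTPase needed to bring RNA polymerase II into the nucleus, had signals of 3217, 902 and 3163 in the same order, a difference of 1.77. In both genes the miR-34a array was the only low one. Each was measured by a single probe set above the filter.

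NDFIP2, CAMK2D and ACVR1B were read by more than one probe set. NDFIP2, an adaptor that recruits NEDD4-family ubiquitin ligases, had signals of 1955 in mock, 843 with miR-34a and 2478 with ghR-34a (difference 1.52), and both its other probe sets were higher too, at a median of 0.97. CAMK2D, the delta chain of calcium/calmodulin-dependent kinase II, had signals of 1433, 540.2 and 1456 (difference 1.38), with all 3 others higher (median 0.87). ACVR1B, a type I receptor for activin, had signals of 1212, 569 and 1312 (difference 1.16), with all 3 others higher (median 0.62). In each of the 3 genes mock and ghR-34a were near each other or ghR-34a was the highest, and miR-34a was the lowest.

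The integrin alpha chains ITGA4 and ITGA6 belonged to the same group. ITGA4, which pairs with beta 1 or beta 7 to bind fibronectin and VCAM1, had signals of 1508 in mock, 585 with miR-34a and 1454 with ghR-34a (difference 1.27), and its 3 other probe sets were all higher (median 0.62). ITGA6, a laminin receptor chain, had signals of 5123, 2449 and 5602 (difference 1.18, and 0.92 in the other probe set). Another integrin chain went the other way. ITGA2, a collagen receptor chain, had signals of 1184, 3190 and 1805 (difference -0.81, and -0.99 in the other probe set), so it was highest with miR-34a. ITGB8 was also highest with miR-34a, at 378 against 201 with ghR-34a and 114 in mock (-0.82). Over the 33 kept genes of integrins and adhesion the median was 0.02, or -0.01 after quantile normalization, with 18 above 0 and only ITGA4 and ITGA6 at 2-fold.

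The rest of the strongly expressed genes were spread over different functions. YIPF6, a Golgi membrane protein, had signals of 4309 in mock, 2212 with miR-34a and 4882 with ghR-34a (difference 1.13), and its 3 other probe sets were all higher at a median of 1.26. CAB39, a scaffold of the LKB1 kinase complex, had signals of 3155, 1590 and 3505 (1.12, and 0.79 in the other probe set). C6orf120 had signals of 6136, 3453 and 7147 (1.04, and 0.65 in the other). RSRC1, a serine- and arginine-rich splicing protein whose mean signal was just under 1000, had signals of 1168, 523 and 1185 (1.13), with both others higher (median 0.63). Each of these 4 genes had its lowest signal with miR-34a.

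Of the other genes in that range, RNPEP (1.07), AGPAT5 (1.07) and SUCLG2 (1.06) were higher with ghR-34a and LSR (-1.06) and ADGRE5 (-1.07) lower, and they are named because they complete the count, after their values were seen. AGPAT5, an acyltransferase of phospholipid synthesis, had signals of 3594, 1717 and 3641 in mock, miR-34a and ghR-34a (0.43 in the other probe set). SUCLG2, a subunit of the citric acid cycle enzyme succinyl-CoA synthetase, had signals of 2401, 1325 and 2789. Its 2 other probe sets were higher at a median of only 0.12. LSR, a lipoprotein receptor of tricellular junctions, had signals of 944, 2332 and 1098, so it stood out by a high miR-34a value. ADGRE5, an adhesion G protein-coupled receptor, had signals of 1445, 1872 and 876. EIF1AX, a translation initiation factor, lay just under the size rule, with signals of 10589, 5464 and 10924, a difference of 0.995, and all 3 other probe sets higher at a median of 1.02. The nearest gene just inside the rule was GNB1L at 1.002. On the other side HOXB13 at -1.002 was just inside, and PLEKHN1 at -0.996 and SLC34A3 at -0.998 were just outside.

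**Figure D3:**
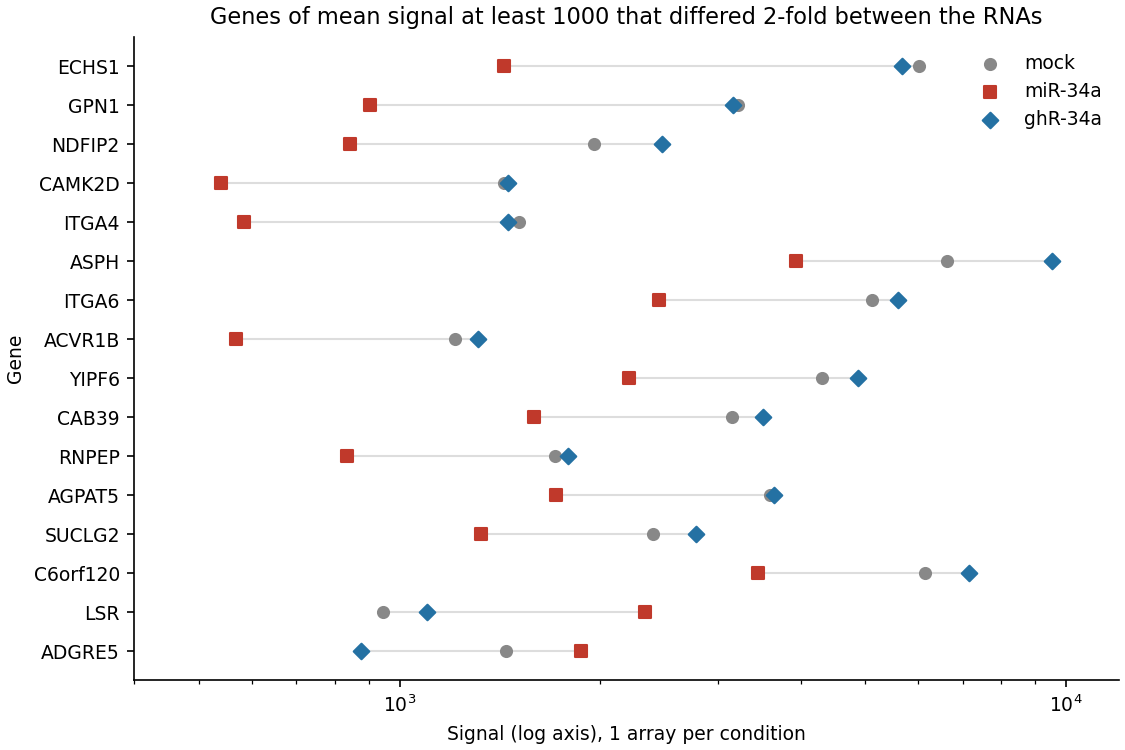
Signals (log axis) of the 16 genes with a mean signal of at least 1000 and a 2-fold difference between the RNAs, 1 array per condition, with mock as circles, miR-34a as squares and ghR-34a as diamonds. In the upper 14 genes the miR-34a signal is the lowest of the 3, and mock and ghR-34a lie close together in most, for example 3217 and 3163 in GPN1.

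ASPH, an aspartyl hydroxylase of the endoplasmic reticulum, was the exception among the 14. Its signals were 6625 in mock, 3934 with miR-34a and 9514 with ghR-34a (difference 1.27), so the RNA arrays lay on opposite sides of mock. Only 3 of its 6 other probe sets had the same sign, with a median of 0.13.

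Genes lower with ghR-34a had lower signals, and fewer had a second measure. MEN1, which encodes the tumour suppressor menin, had signals of 1011 in mock, 1241 with miR-34a and 379 with ghR-34a, a difference of -1.63. CACNG4, an auxiliary subunit of calcium channels and AMPA receptors, had signals of 719, 628 and 191 (difference -1.57). In both genes mock and miR-34a lay together and ghR-34a was low, and neither had another probe set above the filter. FGD2, an activator of the GTPase CDC42, had signals of 407, 226 and 56.1 (-1.55), but 1 of its 2 other probe sets had the opposite sign. Of the 41 genes lower with ghR-34a, 22 had at least 1 array below the filter level, and 16 of the 39 higher genes did. Another probe set was above the filter for 8 of the 41, and 7 of the 8 had the same sign, at a median of -0.18. For the 39 higher genes it was 16 of 16, at a median of 0.62.

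Among genes lower with ghR-34a whose other probe sets bore out the sign and size, some were high with miR-34a, some low with ghR-34a and some both. RHOB, a small GTPase, had signals of 729 in mock, 1219 with miR-34a and 553 with ghR-34a (-1.10, and -0.68 in the other probe set). PRDM1, a transcriptional repressor known from plasma cells, had signals of 152 in mock, 245 with miR-34a and 102 with ghR-34a (difference -1.05, and -0.92 in the other probe set), so the RNA arrays lay on either side of mock. ABCC3, an export pump for conjugated drugs and bile acids, had signals of 219, 468 and 227 (-0.95), with all 3 others lower (median -0.56). RAB27B, a GTPase of secretory vesicles, had signals of 871, 1814 and 998 (-0.84, and -0.55). ABCC3 and RAB27B were high with miR-34a and near mock with ghR-34a. PRPS2, an enzyme that makes the precursor of nucleotides, had signals of 3800 in mock, 3333 with miR-34a and 1779 with ghR-34a (-0.89, and -0.87 in the other probe set). GAPVD1, a regulator of endocytosis, had signals of 3419, 3964 and 2208 (-0.83), with all 3 others lower (median -0.61).

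Genes were also sorted by which RNA array stood apart from mock. A gene was called specific to an RNA when it was at least 2-fold from mock with that RNA, under 0.5 from mock with the other, and at least 2-fold apart between them. By this rule 25 genes were specific to miR-34a, of which 23 were below mock and 2 above it, LSR and CLIP3. The median mock signal of the 25 was 585, 16 of them had all arrays above the filter, and 11 had another probe set, all of the same sign. Besides the genes above, the class held UTS2R, the urotensin receptor, with signals of 338 in mock, 76.8 with miR-34a and 325 with ghR-34a (1.72). It also held AOX1, an aldehyde oxidase, with 298, 104 and 305 (1.30, and 0.36 in the other probe set). SLC12A2, a sodium, potassium and chloride cotransporter named after its values were seen, had 1176, 415 and 959 (1.15, and 0.25).

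The class specific to ghR-34a was smaller and dimmer. It held 11 genes, all lower than mock with ghR-34a. Of these, 8 had a ghR-34a signal below the filter, and 0 had another probe set above it. The 3 with all arrays above the filter were MEN1, CACNG4 and FAXDC2, the last with signals of 449 in mock, 355 with miR-34a and 157 with ghR-34a (-1.03) and named for that count. EXOC3L1, a relative of exocyst subunits, had the largest difference of the class, with signals of 156, 107 and 11.6 (-1.67). After it, MEN1 and CACNG4 came LOC220077, PAQR6 and DRP2, at -1.47, -1.41 and -1.26 and with ghR-34a signals of 29.1, 46.9 and 36.3. By comparison, 56 genes were at least 2-fold from mock the same way with both RNAs and under 0.5 apart.

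The reported miR-34a targets, a list drawn from general knowledge, had 0 kept genes at 2-fold between the RNAs, beside 0.671% of all genes. At that share, 0 in a list of this size says little about targets. Of 97 listed genes 87 were measured and 71 kept. Their median difference was 0.04 (quartiles -0.08 and 0.18), beside -0.03 for all genes, and 45 of 71 were above 0, beside 44.4% of all genes. Their medians against mock were -0.56 with miR-34a and -0.44 with ghR-34a. Both values use the same mock array. The range between the RNAs went from -0.70 for NOTCH1 to 0.91 for FOSL1.

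For the receptors MET and AXL and the kinases CDK4 and CDK6 the values with both RNAs were near each other. MET, the hepatocyte growth factor receptor, had signals of 3269 in mock, 1072 with miR-34a and 1101 with ghR-34a, a difference of 0.04. AXL, the receptor for GAS6, had signals of 20614, 8306 and 9045 (0.12, and 0.33 in the other probe set). CDK4, a kinase of G1, had 9385, 4558 and 5004 (0.13), and its relative CDK6 had 8761, 4554 and 4115 (-0.15). For all 4 the RNA arrays lay far below mock and close to each other. Cyclin E2 (CCNE2) was at 0.04, though its other probe set was at 0.43, and cyclin D1 (CCND1) was at -0.17, while CD44, a hyaluronan receptor, was at 0.02 with all 3 signals between 8934 and 9292.

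A few targets lay further from mock with miR-34a. FOSL1, which pairs with JUN proteins in AP-1, had signals of 6509 in mock, 1183 with miR-34a and 2253 with ghR-34a (0.91), from 1 probe set. EMP1, a membrane protein of epithelia, had 10107, 6488 and 9591 (0.56), and its 4 other probe sets were all higher with a median of 0.58. ACSL4, which activates arachidonic acid, was at 0.46, and its signals were 739, 305 and 433. The deacetylase SIRT1 (0.36), the cell cycle transcription factor E2F3 (0.35) and MYC (0.29) had differences of the same sign. For E2F3 the other probe set was at -0.04.

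Other targets lay lower with ghR-34a. LEF1, a transcription factor of the Wnt pathway, had signals of 382 in mock, 152 with miR-34a and 105 with ghR-34a (-0.43). HDAC1, a histone deacetylase, had 7074, 4710 and 3759 (-0.32). DAAM1, a formin that acts in Wnt signalling to the cytoskeleton, had 227, 370 and 249 (-0.52), so it was high with miR-34a and not low with ghR-34a. The receptor NOTCH1 had 138, 191 and 105 (-0.70), and its ligand JAG1 was at -0.22. The p53 inhibitor MDM4 (-0.23) and the survival factor BCL2 (-0.27) were on the same side, BCL2 with a highest signal of 94.1. For MDM4 only 1 of 5 other probe sets had that sign.

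Cell cycle genes were slightly higher with ghR-34a, which put them closer to mock. In the list for G1/S and DNA replication, 55 of 61 kept genes (90.2%) were above 0, beside 44.4% of all genes. Their median was 0.19 (0.27 with median centring and 0.19 after quantile normalization), and 0 reached 2-fold. Their medians against mock were -0.55 with miR-34a and -0.38 with ghR-34a. E2F2, a transcription factor of the G1/S switch, had signals of 854 in mock, 385 with miR-34a and 573 with ghR-34a (0.54), though its other probe set was at only 0.02. ORC1, the largest subunit of the origin recognition complex, had 489, 267 and 402 (0.54). Both were lowest with miR-34a. GINS2, of the GINS complex in the replicative helicase, was at 0.50, with 1 of 2 other probe sets of that sign. CCNE1, which encodes cyclin E1, had 961, 984 and 1509 (0.60), so it was high with ghR-34a and not low with miR-34a. GINS1 was an exception, with 3279, 1384 and 1202 (-0.20).

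In the G2/M and mitosis list 54 of 74 genes (73.0%) were above 0, with a median of 0.14. SPC24, a kinetochore protein, had signals of 925, 435 and 771 in mock, miR-34a and ghR-34a (0.78). The condensin subunit NCAPH had 771, 304 and 426 (0.45). The transcription factor MYBL2, named outside the rule for naming, had 1726, 733 and 1009 (0.44). SKA3, another kinetochore protein, went the other way with 1112, 1041 and 698 (-0.55). The list of MYC-responsive biosynthesis genes had a median of 0.15, with 27 of 41 above 0, but of 0.03 when the probe sets of each gene were averaged.

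E2F factors bind promoters of many replication genes, so the promoters of this list were searched for TTTNNCGC with C or G at each N, on both strands, in the 250 bases before the start of the gene. A match was found in 18 of the 49 G1/S promoters that could be read (36.7%) and in 5 of 61 G2/M promoters (8.20%), beside 4.55% of the promoters of kept genes and 2.79% of all 27305 promoters. Members with and without a match had median differences of 0.20 and 0.19. As examples, E2F2 (chr1:23531234-23531483, minus strand) has 1 match, and MCM6 (chr2:135876444-135876693, minus strand), a subunit of the replicative helicase picked for its 4 matches, has 2 places where matches on both strands overlap. MCM6 had signals of 12114, 7503 and 9896 (0.40, and 0.26 in the other probe set). Capitals mark the matches in these RefSeq promoters (GRCh38.p14), and the last base printed is the one before the gene's start.
E2F2: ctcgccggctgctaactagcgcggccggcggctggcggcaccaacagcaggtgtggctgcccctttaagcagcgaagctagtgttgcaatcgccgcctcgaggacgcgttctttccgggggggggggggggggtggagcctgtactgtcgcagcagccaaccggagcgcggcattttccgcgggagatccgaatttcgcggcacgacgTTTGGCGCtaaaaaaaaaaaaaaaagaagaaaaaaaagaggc
MCM6: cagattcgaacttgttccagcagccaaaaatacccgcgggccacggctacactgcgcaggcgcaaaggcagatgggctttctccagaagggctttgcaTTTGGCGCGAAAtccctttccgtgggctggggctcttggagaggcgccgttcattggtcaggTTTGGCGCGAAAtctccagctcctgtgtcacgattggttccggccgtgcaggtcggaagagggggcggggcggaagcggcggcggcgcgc
A match describes the letters in this window and is not a measured binding site.

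Interferon-stimulated genes, which answer the type I interferon made by cells that sense foreign RNA, were somewhat lower with ghR-34a than with miR-34a as a list, while single members went both ways. Of 45 kept genes 15 (33.3%) were above 0, beside 44.4% of all genes. Their median was -0.13 (-0.05 with median centring and -0.12 after quantile normalization). Their medians against mock were 0.41 with miR-34a and 0.24 with ghR-34a, and 0 differed 2-fold between the RNAs. IRF9, the DNA-binding subunit of the ISGF3 complex, had signals of 405 in mock, 1138 with miR-34a and 705 with ghR-34a (-0.67). LGALS3BP, a secreted galectin-binding glycoprotein, had 109, 346 and 185 (-0.80). PARP14, an ADP-ribosyltransferase, had 269.6, 505 and 285 (-0.76), and IFITM1, a membrane protein that blocks virus entry, had 129, 267 and 149 (-0.72). These 4 were highest with miR-34a.

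Other members of the list had the opposite order. DDX60, a helicase-like cofactor of RNA sensing, had signals of 190.1 in mock, 302 with miR-34a and 427 with ghR-34a (0.46). IFIT2, which binds viral RNA, had 274, 384 and 509 (0.38, and 0.20 in the other probe set). IFIT3, its partner, had 534, 606 and 839 (0.45), though its other probe set was at -0.27. In all 3 the chosen probe set was highest with ghR-34a.

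The sensors and adaptors of double-stranded RNA, a list of 27 kept genes, had a median of -0.02 that was above 0 with either other scaling. The sensor IFIH1 had signals of 574, 1094 and 857 (-0.34, but 0.26 in the other probe set). The sensor RIGI, named for its role after its value was seen, was at -0.01. RNF135 and TRIM25 are ubiquitin ligases linked to RIG-I activation. RNF135 had signals of 1525 in mock, 789 with miR-34a and 1468 with ghR-34a (0.87, and 1.22 in the other probe set). TRIM25 had 915, 641 and 1084 (0.73, and 0.62). LRRFIP1, a nucleic acid-binding protein, had 3836, 1819 and 3119 (0.77), and 5 of its 6 other probe sets were higher, at a median of 0.22. All 3 were lowest with miR-34a.

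The interferon response acts through an element that the ISGF3 complex binds. The motif GAAA, any 2 bases, GAAA was found on either strand in 21 of 40 promoters of the interferon list (52.5%), beside 2.15% of the promoters of kept genes and 3.07% of all promoters. Members with and without it had median differences of -0.14 and -0.11. A member lower with ghR-34a, PARP14 (chr3:122680589-122680838, plus strand), and one that was higher, DDX60 (chr4:168318753-168319002, minus strand), both hold it. Capitals mark the matches counted, in the same window as above.
PARP14: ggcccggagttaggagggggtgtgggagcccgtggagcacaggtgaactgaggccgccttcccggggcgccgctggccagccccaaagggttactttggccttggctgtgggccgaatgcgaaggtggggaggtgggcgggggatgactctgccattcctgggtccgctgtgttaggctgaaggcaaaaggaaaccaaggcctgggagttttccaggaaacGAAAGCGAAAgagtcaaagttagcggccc
DDX60: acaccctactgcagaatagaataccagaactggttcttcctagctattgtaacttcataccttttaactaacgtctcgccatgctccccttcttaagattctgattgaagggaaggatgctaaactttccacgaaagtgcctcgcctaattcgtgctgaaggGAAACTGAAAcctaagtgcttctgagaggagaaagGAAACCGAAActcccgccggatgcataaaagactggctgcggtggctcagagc

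The machinery that loads and carries out microRNA silencing was slightly higher with ghR-34a as a list, while single members went both ways. The 38 kept genes of Argonaute proteins and microRNA processing had a median of 0.08, beside -0.03 for all genes. It was 0.03 when the probe sets of each gene were averaged. Of the 38 genes 22 (57.9%) were above 0, beside 44.4% of all genes, and 0 were at 2-fold, beside 0.671%. DICER1, which cuts precursors to mature length, had signals of 5460 in mock, 5083 with miR-34a and 6694 with ghR-34a (0.39), with 2 of 3 other probe sets of that sign. ERI1, an exonuclease that trims small RNAs, had 1160 in mock and was at 0.62 (0.54 in the other probe set). SND1, a nuclease that associates with the silencing complex, was at 0.74, with signals of 475, 447 and 768. TNRC6B, the scaffold that joins Argonaute to the deadenylases, had 879, 1307 and 864 (-0.58), and all 6 other probe sets were lower, at a median of -0.32. Its miR-34a signal was the high one.

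The 53 genes of mRNA deadenylation and decay had a median of 0.05, with 33 above 0 (62.3%, beside 44.4% of all genes). The median was 0.002 when the probe sets of each gene were averaged. EDC3, a scaffold of decapping, had signals of 571, 309.6 and 562 (0.80), but its other probe set was at only 0.03. The deadenylase scaffold CNOT1 had 3605, 2511 and 3551 (0.49), while both its other probe sets had the opposite sign. DCP1A, a decapping cofactor, had 1085, 927 and 609 (-0.58, and -0.53 in the other probe set).

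Genes of cilia, whose list medians were above mock with both RNAs, were lower with ghR-34a than with miR-34a as lists. Of 57 kept genes of motile cilia 18 (31.6%) were above 0, beside 44.4% of all genes. Their median was -0.17 (-0.09 with median centring and -0.13 after quantile normalization). Against mock their medians were 0.45 with miR-34a and 0.28 with ghR-34a. CFAP206, an axonemal protein, had signals of 99.3 in mock, 431 with miR-34a and 299 with ghR-34a (-0.48). CFAP299 had 44.0, 219 and 99.2 (-0.93), and the dynein heavy chain DNAH1 had 67.9, 139 and 55.0 (-0.98). DNAL4, a dynein light chain, was the only one at 2-fold, with 150.2, 77.2 and 191 (1.03). Many of these signals are near the filter level of 68.6, and all genes of signal class 1 had a median of -0.09.

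The transport machinery shared by all cilia, intraflagellar transport and the BBSome, had a median of -0.15 over 46 genes. It was -0.07 with median centring and -0.15 after quantile normalization. Of the 46 genes 7 (15.2%) were above 0, beside 44.4% of all genes. LZTFL1, a regulator of BBSome traffic, had signals of 868, 2057 and 1582 (-0.37, and -0.41 in the other probe set). BBS10, a chaperone for BBSome assembly, had 1625, 1636 and 2377 (0.53). So LZTFL1 was highest with miR-34a and BBS10 with ghR-34a.

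Replication-dependent histone genes had the lowest median of the 35 lists with at least 5 kept genes, -0.26 over 21 genes (-0.18 with median centring). Of the 21 genes 3 (14.3%) were above 0, beside 44.4% of all genes. H3C8 was at -1.37, with signals of 231 in mock, 321 with miR-34a and 105 with ghR-34a. H2BC5 had 1066, 3292 and 2211 (-0.57, and -0.55 in the other probe set), and was above mock with both RNAs. These genes are near copies of each other, so a probe set can read more than 1 of them.

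Among signalling lists, Notch and Wnt were near the median of all genes (-0.03), and the ERK and receptor tyrosine kinase lists lay above it. Single members stood apart. The 35 genes of ERK output and feedback had a median of 0.09, with 23 above 0 (65.7%, beside 44.4% of all genes). The phosphatases DUSP5 (signals 2515, 1729 and 2522 in mock, miR-34a and ghR-34a, difference 0.54) and DUSP1 (1616, 1602 and 2476, 0.62) were higher with ghR-34a. DUSP5 was low with miR-34a. DUSP1 was high with ghR-34a in this probe set, but its other probe set was at only 0.11. The 34 genes of receptor tyrosine kinases and the MAPK pathway had a median of 0.03, with 24 above 0 (70.6%). TYRO3, a relative of AXL, had 316, 198 and 324 (0.63), and ROR1 was at 0.68 but at a median of -0.35 in its 2 other probe sets. The Notch list (30 genes) was at -0.06 and the Wnt list (33 genes) at -0.02. Both were above 0 with median centring, as was the median of all genes (0.05). HES1, a Notch target gene, had 619, 736 and 449.8 (-0.67, and -0.28 in the other probe set).

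The list of epithelial-mesenchymal transition and TGF-beta genes was lower with ghR-34a, at a median of -0.18 over 40 genes (-0.10 with median centring). The list had 11 genes above 0 (27.5%, beside 44.4% of all genes). Its members do not all mark one state. ACVR1B, given above, was the only member at 2-fold (1.16) and went against the list. ZEB1, a repressor of epithelial genes, did so too, with signals of 1661 in mock, 1099 with miR-34a and 2022 with ghR-34a (0.86). Both other probe sets of ZEB1 were higher (median 0.44). Keratin 8 (KRT8), an epithelial filament protein, was at -0.40, and the desmosome protein DSP was at -0.60. Fibronectin (FN1), a product of mesenchymal cells named outside the rule for naming, was at -0.42 with all 3 other probe sets lower (median -0.61).

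Stress and survival lists moved little. The 29 genes of p53 targets and regulators had a median of -0.04, above 0 with median centring, as was the median of all genes (0.05). CCNG1, cyclin G1, had signals of 10299, 9200.5 and 6447 (-0.51), and AEN, a nuclease, had 571, 269 and 404 (0.53). The 35 apoptosis regulators had a median of -0.08. BIK, a BH3-only activator of cell death, had 219.8, 768 and 410.2 (-0.86) and was highest with miR-34a. The NF-kappaB and inflammatory list (22 genes) was at -0.06, above 0 with median centring, and the adhesion receptor ICAM1 had 685, 1146 and 680.4 (-0.73), with both others lower (median -0.26). The senescence-associated list (25 genes) was at -0.07, above 0 with either other scaling. The unfolded protein and integrated stress response list (42 genes) was at -0.10. The heat shock, oxidative and metal stress list (33 genes) was at -0.06, above 0 with median centring.

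Metabolic lists lay within 0.08 of the median of all genes. Sterol and fatty acid synthesis (29 genes) was at -0.10 with 9 above 0. ACLY, which makes cytosolic acetyl-CoA, went against that list with signals of 7564, 5251 and 8194 (0.64), and both its other probe sets were higher (median 0.68). TM7SF2, a sterol reductase, had 348, 681 and 396 (-0.74). Lysosome and autophagy (48 genes) was at -0.11 with 12 above 0 (25%). Hypoxia and glycolysis (32 genes), oxidative phosphorylation (49 genes), cytosolic ribosomal proteins (52 genes) and reference genes (16 genes) had medians of -0.01, -0.01, -0.06 and -0.06. With median centring they were 0.07, 0.07, 0.02 and 0.02, beside 0.05 for all genes. In the same order 15, 22, 8 and 4 genes were above 0. For ribosomal proteins this was 15.4% and for reference genes 25%, beside 44.4% of all genes.

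Groups defined by gene symbol alone included 391 zinc finger genes (median -0.01), 231 antisense genes (-0.09), 126 LINC genes (-0.06) and 16 small RNA host genes (-0.01). All but the antisense median were above 0 with median centring, as was the median of all genes (0.05). Among antisense genes KIF9-AS1 had signals of 151 in mock, 20.1 with miR-34a and 104 with ghR-34a (1.39), and SLC38A2-AS1 had 192, 115 and 26.6 (-1.33). Each was lowest with a different RNA, at a signal below the filter.

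The markers fixed for the cell line were present in all arrays. All 8 measured were kept, among them VIM, at signals from 31979 to 35416, and KRT18, at 17498 to 23158. Of the markers of other cells, 4 of 15 measured for leukocytes, 5 of 17 for fibroblasts and endothelium and 4 of 16 for normal lung epithelium and neuroendocrine cells were kept. The 4 kept leukocyte markers were CD79A, ITGAM, CD3E and CD4, at mock signals of 151, 135, 113 and 85.5. PTPRC, a leukocyte marker that was not kept, was listed at signals from 5.31 to 28.8. Summed signals with miR-34a and ghR-34a were 809.7 and 689 for the leukocyte list, 1183 and 1216 for the fibroblast and endothelial list and 888 and 739 for the lung list. Their part in the differences above was not tested.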

How the data were processed

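Total RNA of 3 NCI-H1299 cultures was measured on 1-colour Affymetrix expression arrays. The authors deposited a table of intensity per probe set on a linear scale, made with Affymetrix Expression Console per the submitters' processing notes. Its version and settings are not given in the sources used here, and no detection calls were used here, so low signals may not be above background.

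From the deposited intensity, log2(signal + 32) was computed without further scaling. Of 54675 probe sets 41091 named a single gene, 1801 several and 11721 none, and 62 were controls. By Entrez identifier 41043 matched RefSeq. The probe set with the highest mean log2 value stood for its gene. Genes were kept from the median of the mean log2 values over all probe sets upward, a level equal to a signal of 68.6. A size rule of 2-fold replaced a test, because each condition had 1 array. Files name no genome build for the probe sets. Sequences were read from RefSeq tables (GRCh38.p14).

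The members and the 37 gene lists were chosen with earlier results of these data known. The rule for naming took, each way, the 15 largest differences and the 12 largest that another probe set bore out, targets, list members and class members with the largest differences, ACTB and GAPDH. Python 3.11.15, numpy 2.4.6, pandas 2.3.3 and matplotlib 3.10.9 were used.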

Additional observations from a re-analysis of the deposited data

Results flagged for a closer look

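In 11 genes the miR-34a array and the ghR-34a array lay on opposite sides of mock, by at least 0.5 on the log2 scale each way, and at least 2-fold apart. With 1 array per condition the difference was not tested. Lower with ghR-34a and above mock with miR-34a were BICDL1 (-1.87), TMPRSS6 (-1.81), PRPF40B (-1.68), GIPR (-1.39), APOBEC3G (-1.21), PPM1H (-1.20) and ARHGEF3 (-1.02). Higher with ghR-34a and below mock with miR-34a were MYL10 (2.02), ASB13 (1.33), ASPH (1.27) and SHC2 (1.11). BICDL1, a dynein adaptor, had signals of 77.5 in mock, 169.6 with miR-34a and 23.0 with ghR-34a. TMPRSS6, a serine protease known for its control of hepcidin, had 77.1, 208 and 36.3. PRPF40B, a splicing factor, had 101, 170.5 and 31.3. MYL10, a myosin light chain, had 67.7, 20.4 and 180.4. In 7 of the 11 genes at least 1 array was below the filter level of 68.6, and only ASPH had another probe set above it. ASPH, ASB13 and ARHGEF3 had all signals above the filter, as did PPM1H, with 164.5, 269 and 99.4.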

How the results depend on the processing

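The counts of 39 higher and 41 lower genes depend on the settings. They were 18 and 14 with a pseudocount of 100, 176 and 256 without a filter, 20 and 16 at a mean signal of at least 200, 23 and 19 with a filter on every array, 18 and 16 with averaged probe sets, 267 and 390 at 1.5-fold and 4 and 5 at 3-fold. The lower count was 94 with a pseudocount of 1 and 27 with median centring. Among genes of mean signal at least 1000, 7 were higher with averaged probe sets, and 0 were lower with median centring or without probe sets marked _s_at and _x_at. The 25 genes specific to miR-34a became 39 with a pseudocount of 1, 12 with 100 and 13 with averaged probe sets, and the 11 specific to ghR-34a became 27, 2 and 4. The median of the reported targets stayed above 0 under all 9 alternatives. Of the 39 higher genes 8 kept at least 2-fold under every alternative that gave a value. They were ECHS1, GPN1, ITGA6, NDFIP2, UTS2R, YIPF6, MYL10 and RNPEP, the first 6 with a value in all 9. Of the 41 lower genes 7 did so, BICDL1, H3C8, MEN1, PRPF40B, RHOB, TMPRSS6 and TRMT2A. Among these 7 only TRMT2A had a value in all 9. Its signals were 205 in mock, 440 with miR-34a and 165 with ghR-34a (-1.26). No named gene changed sign past 2-fold. Of 35 list medians, 15 changed sign with median centring, which itself moved the median of all genes from -0.03 to 0.05. The sign changed for 8 after quantile normalization and for 8 without probe sets marked _s_at and _x_at. No replicate could be left out, and no paired analysis was possible because each condition has 1 array.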

Other observations

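Probe sets that name no gene or several genes were not used above. Of 3503 unnamed probe sets above the filter, 10 were at least 2-fold higher and 15 at least 2-fold lower with ghR-34a than with miR-34a (0.714%). Of 1124 probe sets that name several genes, 5 were higher and 6 lower (0.979%). Among the 22680 probe sets of a single gene above the filter, 90 were higher and 82 lower (0.758%). Probe sets for 18S ribosomal RNA, 3 in all, had a mean difference of 0.07, with a range from -0.05 to 0.20.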
